A study of Homo sapiens with 50 samples.

Results

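The genes described here are 9 membrane transporters of liver cells, grouped as hepatic drug efflux and uptake transporters. ABCB1, ABCB4, ABCC2, ABCC3, ABCC6 and ABCG2 are ATP-driven efflux pumps, and SLCO1B1, SLCO1B3 and SLCO2B1 are uptake carriers of the organic anion transporting polypeptide family. They were chosen by gene name from a table that names 56567 genes, and all 9 were in it, with 80 named transcripts, of which 72 were detected in at least 1 library. The 9 genes passed the filter on low values, which kept 24222 features with at least 1 FPKM in at least 5 libraries. FPKM is a read density: fragments scaled by transcript length and by the number of fragments in the library. A gene's level is the sum of its named transcripts.

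RNA was sequenced from differentiated HepaRG cells, an established human liver line that forms cultures of hepatocyte-like and biliary-like cells. Mesotrione, isoxaflutole or quizalofop-p-ethyl, all 3 herbicide ingredients, was given from day 8 to day 14 of culture at 0.1 uM, 10 uM or 1 mM. Control cells form the tenth group, and per the labels the test medium held fetal bovine serum and DMSO. Each group had 5 libraries, but 1 library of quizalofop-p-ethyl at 10 uM was left out, so 49 of the 50 libraries were compared and that group has 4. The left-out library (replicate 5) had 6782 genes at 1 FPKM or more, against 16996 to 20321 in the others, and an estimated 3760000 fragments, against 7180000 to 34240000. All groups come from 1 line. Whether the 5 libraries of a group stem from 5 separate cultures is not stated in the labels, so the p-values describe the scatter among these samples, and that scatter may be technical. Cells of different types were not separated, and fewer cells of a type and less RNA per cell cannot be told apart.

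In hepatocytes the uptake carriers sit in the sinusoidal membrane, facing the blood, and bring in bilirubin conjugates, statins and hormone sulfates. ABCB1, ABCB4, ABCC2 and ABCG2 sit in the canalicular membrane and empty into bile, while ABCC3 and ABCC6 sit in the basolateral membrane. Nuclear receptors such as PXR (NR1I2), CAR (NR1I3) and FXR (NR1H4), the dioxin receptor AHR, the stress factor NRF2 (NFE2L2) and the hepatocyte factor HNF4A are known to act on genes of this group.

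The DNA just before the start sites is shown for SLCO1B1, for its neighbour SLCO1B3, and for the start sites of ABCC6 and SLCO2B1 nearest to transcripts that were listed at 0 at the highest quizalofop-p-ethyl concentration. At the ABCC6 site the shorter transcript that was left in those libraries begins within a few bases as well. The windows begin 250 bases before a RefSeq start site (build GRCh38.p14), read 5′ to 3′ on the gene's strand, and stop before the first base of any annotated exon of the gene. Capitals mark the motifs that were searched on both strands. The half-site bound by many nuclear receptors was searched as AGGTCA. The TATA box was searched as TATAAA. The core of an AHR element was searched as GCGTG. The core of an NRF2 element was searched as TGACNNNGC. A match on the opposite strand is capitalised as its reverse complement.
SLCO1B1, plus strand, chr12:21130944-21131193: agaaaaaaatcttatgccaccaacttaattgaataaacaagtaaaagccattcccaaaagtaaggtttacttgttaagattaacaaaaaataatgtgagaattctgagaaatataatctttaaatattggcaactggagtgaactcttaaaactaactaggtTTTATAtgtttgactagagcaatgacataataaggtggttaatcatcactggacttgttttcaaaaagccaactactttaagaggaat
SLCO1B3, plus strand, chr12:20810455-20810701: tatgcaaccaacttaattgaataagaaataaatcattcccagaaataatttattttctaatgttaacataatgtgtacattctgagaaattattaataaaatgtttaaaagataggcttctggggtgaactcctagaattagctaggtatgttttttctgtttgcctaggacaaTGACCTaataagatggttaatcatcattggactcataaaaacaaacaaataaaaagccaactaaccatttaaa
ABCC6, minus strand, chr16:16223523-16223721: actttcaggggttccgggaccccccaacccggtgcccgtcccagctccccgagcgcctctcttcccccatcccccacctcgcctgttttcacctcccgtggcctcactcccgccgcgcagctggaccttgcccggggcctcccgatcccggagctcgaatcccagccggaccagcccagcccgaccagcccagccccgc
SLCO2B1, plus strand, chr11:75159582-75159779: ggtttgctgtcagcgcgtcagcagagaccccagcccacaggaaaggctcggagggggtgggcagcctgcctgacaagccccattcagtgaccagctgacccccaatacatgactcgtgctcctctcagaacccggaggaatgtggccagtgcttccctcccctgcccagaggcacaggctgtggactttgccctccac

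The SLCO1B1 and SLCO1B3 windows share a run of 18 bases, which begins 232 bases before the start of SLCO1B1 and 244 before that of SLCO1B3. The SLCO1B1 window held TATAAA on the minus strand, 88 to 83 bases before its start, and the SLCO1B3 window held AGGTCA on the minus strand, 76 to 71 bases before its start. AGGTCA was present in 12.1% of all 35116 windows of 250 bases in the table, TATAAA in 10.7%, GCGTG in 32.2% and TGACNNNGC in 10.9%. The windows of ABCC6 and SLCO2B1 shown held none of these letters. Of the 9 genes, 7 had a window, 14 windows in all, and ABCB4 and ABCC3 are named only. GCGTG was found 53 bases before 1 of the ABCB1 start sites, in bases that are not shown because they lie inside the main transcript ENST00000622132, which begins 189 bases upstream of that site. The ABCG2 windows at 3 of its 5 start sites also held it. A match shows only that the letters are there.

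In control cells ABCC3 had the highest level of the 9 genes at 41.4 ± 13.2 FPKM (SD, n = 5), followed by ABCC2 at 32.3 ± 10.8, ABCB1 at 21.7 ± 2.83 and ABCC6 at 11.2 ± 1.27. SLCO2B1, at 8.91 ± 2.18, was the most abundant uptake carrier, with ABCB4 at 5.82 ± 1.26 and SLCO1B1 at 4.49 ± 1.17. ABCG2 had 1.69 ± 0.758 FPKM and SLCO1B3 0.700 ± 0.460. Neighbours in this order overlapped between libraries except ABCB1 over ABCC6 and SLCO1B1 over ABCG2. These are levels per transcript length, and short or unspliced transcripts in a sum can raise it.

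Quizalofop-p-ethyl at 1 mM gave the only changes that passed the test against control. ABCC6, SLCO2B1 and SLCO1B1 fell strongly, ABCB1 and ABCB4 fell less, and ABCC2, ABCC3, ABCG2 and SLCO1B3 did not pass. That makes 5 of 9 genes lower and 0 higher (limma on log2(FPKM + 1), Benjamini-Hochberg adjusted p below 0.05 over all features). Of all features, 32.7% passed in this comparison, 19.8% lower and 13% higher. The median log2 fold change of the 9 genes was -0.42, against -0.08 over all features. With each library scaled by its median ratio, 3 of the 9 genes passed, and 50.2% of the features that passed were higher, against 39.6% in the main fit. With that scaling 8241 of 23568 features passed, against 7926 of 24222 in the main fit.

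**Figure D1:**
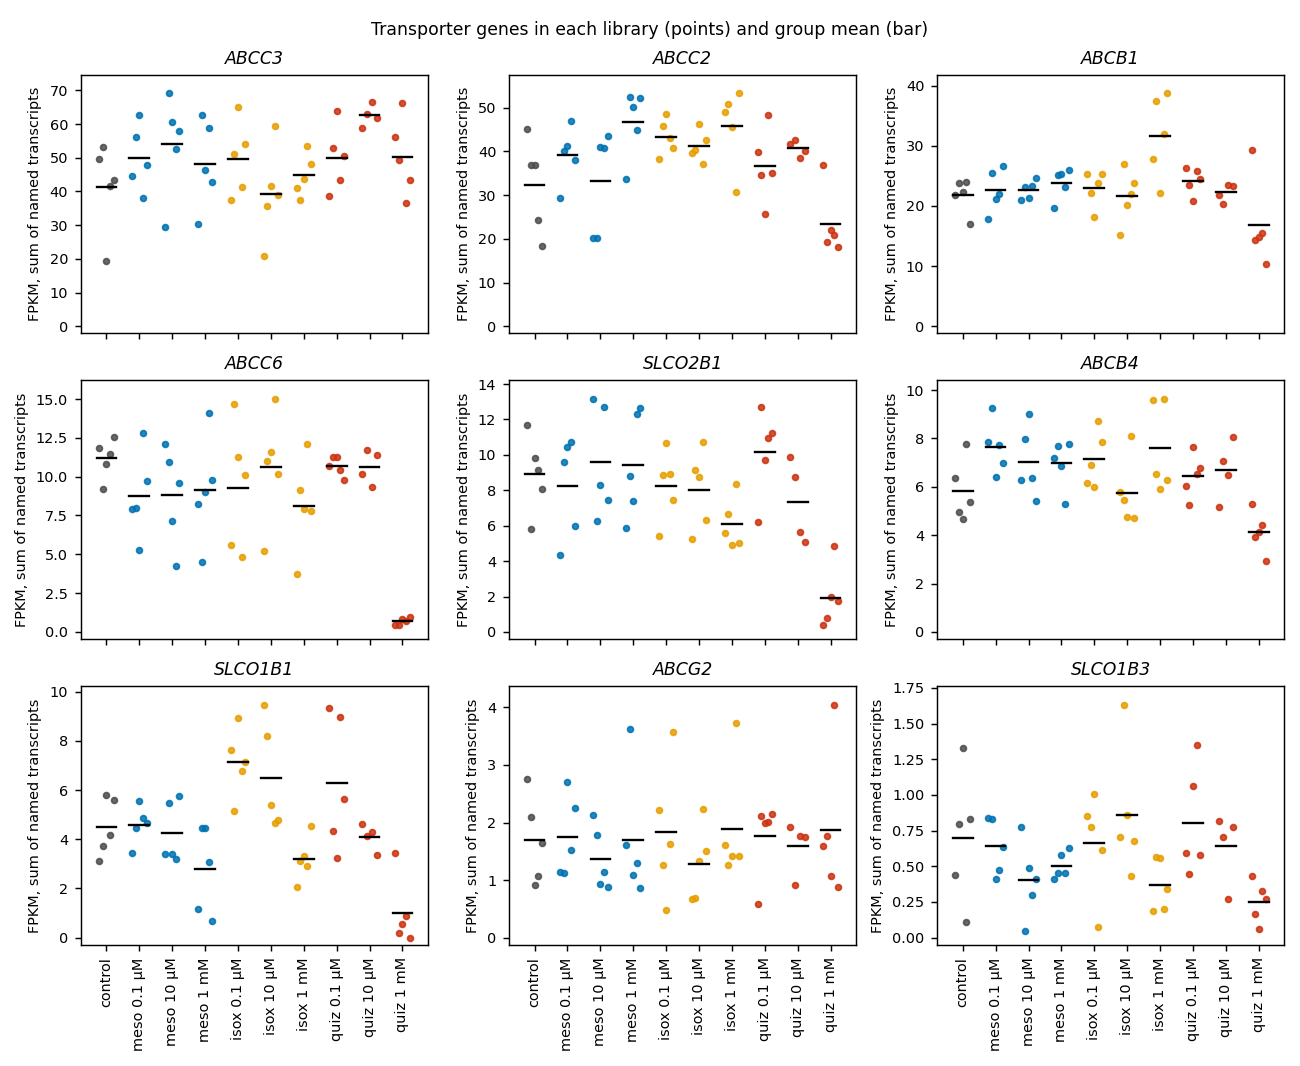
Level of each gene in FPKM (vertical axis, linear) in every library (points) of the 10 groups, with the group mean as a bar; meso, isox and quiz stand for mesotrione, isoxaflutole and quizalofop-p-ethyl. ABCC6 at quizalofop-p-ethyl 1 mM sits between 0.419 and 0.954, under all control libraries at 9.23 to 12.6.

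ABCC6 (chromosome 16, 16148928 to 16223522, minus strand, GRCh38) encodes MRP6, a basolateral pump whose loss causes pseudoxanthoma elasticum. Its control libraries had 11.8, 9.23, 10.8, 11.5 and 12.6 FPKM, and those of quizalofop-p-ethyl at 1 mM had 0.435, 0.419, 0.858, 0.708 and 0.954. The groups did not overlap, and the mean of the exposed libraries was 6.03% of control (log2 fold change -2.87, SE 0.26, limma adjusted p = 3.1e-12). The call held in all 7 other settings and with any 1 of 10 libraries left out. Counting assembled transcripts without a gene name at the locus as well, the mean was 1.31 FPKM in exposed libraries and 12.1 in control. ABCC6 has near-identical pseudogene copies, and the labels do not state how reads were shared among them, so its level is uncertain.

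SLCO2B1 (chromosome 11, 75100563 to 75206549, plus strand) encodes OATP2B1, a broad uptake carrier of sulfated steroids and drugs. Control libraries had 11.7, 5.81, 9.83, 9.13 and 8.09 FPKM. At 1 mM quizalofop-p-ethyl the values were 0.375, 0.766, 1.96, 4.84 and 1.75, all below the lowest control (log2 fold change -1.91, SE 0.28, limma adjusted p = 2.89e-07). Replicate 4 was the least reduced.

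SLCO1B1 (chromosome 12, 21131202 to 21239246, plus strand) encodes OATP1B1, the carrier that takes statins into hepatocytes, and it is made here as 1 named transcript. Control libraries had 3.13, 3.74, 5.80, 4.16 and 5.60 FPKM. The exposed libraries had 3.44, 0.188, 0.575 and 0.892 in replicates 1 to 4, and replicate 5 was listed at 0. Replicate 1 lay inside the control range and the other 4 lay below it (log2 fold change -1.63, SE 0.30, limma adjusted p = 1.84e-05). The fold change was -1.97 without replicate 1 of the exposed group and -1.44 without replicate 5, and the call held in both. It was -2.93 with a pseudocount of 0.1 in place of 1.

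SLCO1B3, the OATP1B3 gene on the same stretch of chromosome 12 (20810702 to 20916911), was near 1 FPKM or under it in every control library. Its control values were 0.437, 0.795, 1.33, 0.107 and 0.833, against 0.435, 0.169, 0.0596, 0.324 and 0.271 in the exposed libraries, and the groups overlapped. The log2 fold change of -0.41 (SE 0.17) missed the threshold with limma (adjusted p = 0.0685). Without control replicate 4, which had the lowest control value, it was -0.55 and passed (limma adjusted p = 0.0121). With a pseudocount of 0.1 the SLCO1B3 value was -1.04 and did not pass (limma adjusted p = 0.0858).

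ABCB1 (chromosome 7, 87503633 to 87713323, minus strand) encodes P-glycoprotein, the main multidrug efflux pump. Its control libraries had 21.8, 23.8, 22.3, 23.9 and 17.0 FPKM. Replicate 1 of quizalofop-p-ethyl at 1 mM had 29.4, above every control, and replicates 2 to 5 had 14.4, 14.9, 15.4 and 10.3, below every control. The log2 fold change was -0.42 (SE 0.16, limma adjusted p = 0.0396), and -0.63 without replicate 1 (adjusted p = 0.000375). The call was lost with all 50 libraries, with no filter, with median-ratio scaling and with the 2 groups fitted alone. It was also lost when any 1 of control replicates 1 to 4 or exposed replicates 2 to 5 was left out, with a weakest value of -0.27 (adjusted p = 0.208) without exposed replicate 5.

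ABCB4, next to ABCB1 on chromosome 7 (87401697 to 87480435), encodes MDR3, which moves phosphatidylcholine into bile. Control libraries had 6.38, 4.95, 4.67, 7.75 and 5.37 FPKM and exposed libraries 5.28, 3.91, 4.12, 4.44 and 2.94. Only replicate 1 of the exposed group reached the control range (log2 fold change -0.41, SE 0.15, limma adjusted p = 0.0316). The call was lost under the same 4 settings as for ABCB1, and without control replicates 1 or 4 or exposed replicates 2 or 5, where the adjusted p went up to 0.128. ABCB1 and ABCB4 share 1 assembled locus in the table.

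ABCC2 (chromosome 10, 99782640 to 99852594, plus strand) encodes MRP2, the canalicular pump for bilirubin glucuronides. Control values spread from 18.3 to 45.1 FPKM around a median of 36.9. The exposed libraries had 36.8, 19.2, 21.95, 20.8 and 18.1, so replicate 1 stood with the control median and the other 4 at or just below the low end of control, with replicate 5 under the lowest control. The log2 fold change of -0.43 (SE 0.21) did not pass (limma adjusted p = 0.112). It passed without exposed replicate 1 (-0.60, adjusted p = 0.0233) and without control replicate 5 (-0.61, adjusted p = 0.0203), both from limma.

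ABCC3 (chromosome 17, 50634777 to 50692252, plus strand) encodes MRP3, a basolateral pump known to rise when bile flow is blocked. Control libraries had 49.5, 53.2, 19.3, 41.7 and 43.5 FPKM and exposed libraries 56.2, 49.4, 66.3, 36.5 and 43.3, which overlap (log2 fold change 0.32, 95% interval -0.15 to 0.79, limma adjusted p = 0.315). ABCG2 (chromosome 4, 88090264 to 88231322, minus strand), the breast cancer resistance protein, had 0.907 to 2.75 FPKM in control and 0.882 to 4.05 in exposed libraries (0.05, 95% interval -0.51 to 0.61, adjusted p = 0.927). The intervals of both genes include no change and changes of either sign.

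**Figure D2:**
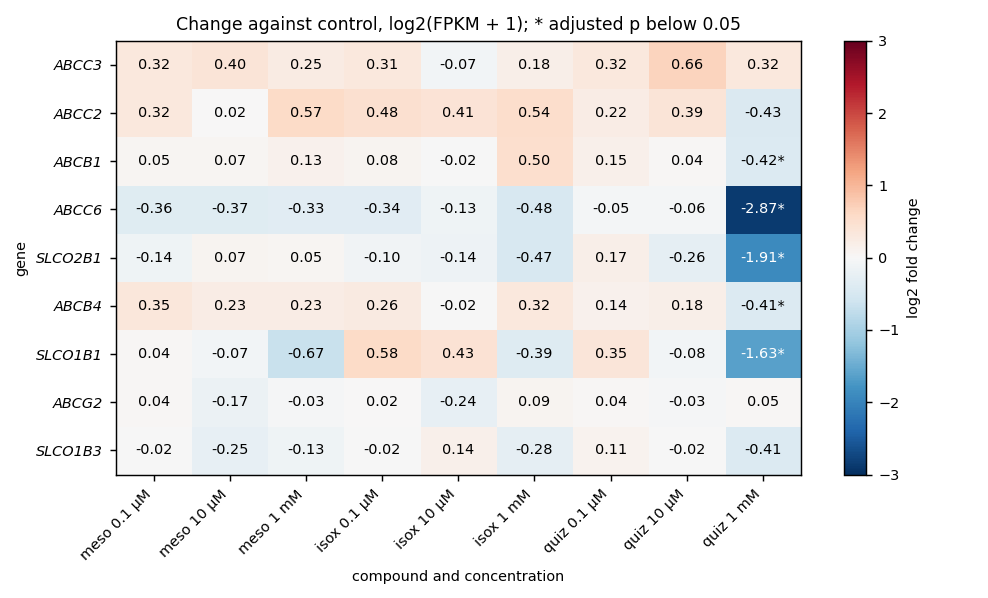
Log2 fold change against control on the log2(FPKM + 1) scale for each gene (rows, in order of control level) and each compound and concentration (columns); colour runs from -3 (blue) to 3 (red). Asterisks stand only in the quizalofop-p-ethyl 1 mM column, at ABCB1, ABCB4, ABCC6, SLCO1B1 and SLCO2B1.

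The named transcripts of ABCC6 and SLCO2B1 were also looked at 1 by 1. The 31-exon ABCC6 transcript ENST00000205557 had 3.10 to 6.74 FPKM in the control libraries and was listed at 0 in all 5 libraries of quizalofop-p-ethyl at 1 mM. It was also listed at 0 in 10 libraries of mesotrione and isoxaflutole over all concentrations, among them 3 of 5 with mesotrione at 0.1 uM, so a 0 for this transcript is not particular to quizalofop-p-ethyl. Of the named ABCC6 sum, what was left came mostly from the 2-exon transcript ENST00000575728 at the start of the gene. It had 0.333 to 0.847 FPKM in the libraries of quizalofop-p-ethyl at 1 mM and 1.90 to 2.97 in control. Transcripts without a gene name had a mean of 0.640 FPKM at 1 mM quizalofop-p-ethyl, 48.7% of the ABCC6 locus. In control they had 0.890 FPKM, 7.37% of it. The SLCO2B1 transcript with the inner start site, ENST00000428359, had 1.60 to 5.65 FPKM in control and was listed at 0 in all 5 exposed libraries. ENST00000289575, which begins upstream, had 0.227 to 5.61 FPKM in control and was listed at 0 in 4 of the 5. At isoxaflutole 1 mM ENST00000428359 had 0 to 2.69 FPKM, at mesotrione 1 mM 1.95 to 4.58, and it was listed at 0 in 4 libraries of the other groups. These are StringTie estimates that share fragments among overlapping transcripts, so a listed 0 is not a count. The limit given above for ABCC6 and its pseudogene copies holds for its transcripts too. Transcripts without a gene name held 36.9% of the SLCO2B1 locus at 1 mM quizalofop-p-ethyl (mean 1.13 FPKM). In control they held 13.4% of it (mean 1.375 FPKM).

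**Figure D3:**
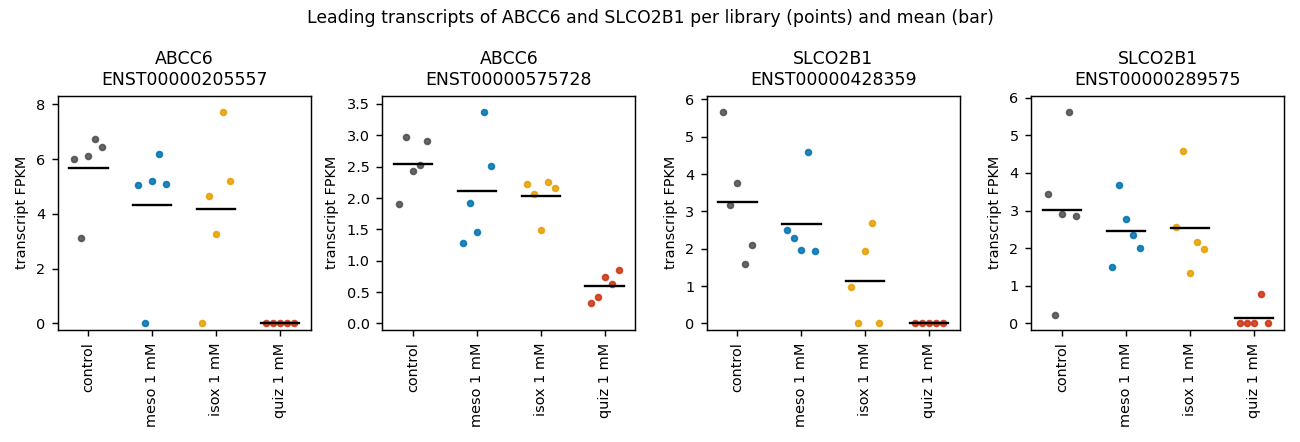
FPKM of 2 leading transcripts each of ABCC6 and SLCO2B1 in the libraries (points) of control and the 3 compounds at 1 mM, with the mean as a bar. ENST00000205557 and ENST00000428359 lie at 0 in all 5 quizalofop-p-ethyl libraries.

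Nearly all ABCB1 signal, 93.1%, was in ENST00000622132, and ABCC2 signal was 89.6% in ENST00000370449. Annotated protein-coding transcripts made up 100% of the SLCO1B1 and ABCG2 sums, 82.3% for ABCC6 and 83.5% for SLCO2B1, but 60.0% for ABCB4 and 36.8% for ABCC3. The most abundant ABCC3 transcript, ENST00000505699, is annotated as a target of nonsense-mediated decay. Counting coding transcripts only, ABCB4 had 3.18, 4.48, 4.21, 5.05 and 5.12 FPKM in control and 4.56, 2.10, 1.59, 1.505 and 0.577 at 1 mM quizalofop-p-ethyl. Exposed replicate 1 lay inside the control range and the other 4 lay below it, and the mean was 46.9% of control, against 71.1% for the whole ABCB4 sum. At mesotrione 1 mM the coding ABCB4 transcripts had 2.27, 2.43, 3.28, 3.59 and 2.88 FPKM, a mean of 2.89 against 4.41 in control. The whole ABCB4 sum was 119.6% of control there, so the direction differed between coding and whole sum, while with quizalofop-p-ethyl both fell. These coding sums were not tested.

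Replicate 1 of quizalofop-p-ethyl at 1 mM stood apart in a way that differed between the genes. It had the highest ABCB1, ABCB4, ABCC2, SLCO1B1 and SLCO1B3 values of its group and the lowest SLCO2B1 value. Its ABCC6 value of 0.435 was the second lowest. ALB, the albumin gene and a hepatocyte marker, was also highest in this library at 2719 FPKM, against 56.6 to 900 in the other 4 and 8217 to 10320 in control. Without it, ABCC6 and SLCO2B1 fell by 2.82 and 1.68 on the log2 scale, and both calls held. Without it ABCB4 had a log2 fold change of -0.48 and passed, with limma adjusted p = 0.0148. SLCO1B3 (-0.46), ABCC3 (0.28) and ABCG2 (0.06) still did not pass without it, and ABCB1, ABCC2 and SLCO1B1 are given without it above.

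Mesotrione and isoxaflutole at 1 mM changed none of the 9 genes by the same test. Of all features, 0.879% passed with mesotrione and 2.42% with isoxaflutole. At an unadjusted p below 0.05, limma gave 2 of the 9 genes for mesotrione, ABCC2 higher and SLCO1B1 lower, and 3 for isoxaflutole, ABCB1, ABCB4 and ABCC2, all higher. That unadjusted cutoff was passed by 9.36% of all features with mesotrione and 12.6% with isoxaflutole. No other tool was run.

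ABCB1 at isoxaflutole 1 mM had 27.8, 37.4, 22.1, 31.9 and 38.7 FPKM, and 4 of the 5 libraries exceeded the highest control value of 23.9. The log2 fold change was 0.50 (SE 0.16, limma adjusted p = 0.0928), and without isoxaflutole replicate 3, the lowest library, it was 0.62 and passed (adjusted p = 0.0301). ABCC2 had 30.6 to 53.3 FPKM with isoxaflutole and 33.6 to 52.5 with mesotrione, both overlapping control, with log2 fold changes of 0.54 (SE 0.21, adjusted p = 0.214) and 0.57 (SE 0.21, adjusted p = 0.269) in limma. With unnamed transcripts of the locus added the ABCC2 values were 0.39 with isoxaflutole and 0.21 with mesotrione, and neither passed. SLCO1B1 had 1.18, 4.47, 4.44, 3.10 and 0.680 FPKM at mesotrione 1 mM, with replicates 1 and 5 far under the control range and replicate 4 just under it (log2 fold change -0.67, SE 0.30, limma adjusted p = 0.449). SLCO2B1 at isoxaflutole 1 mM had 4.89 to 8.36 FPKM and overlapped control (-0.47, SE 0.28, limma adjusted p = 0.507).

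At 0.1 uM and 10 uM none of the 9 genes passed in any of the 6 comparisons with control. Over all features 0.0% passed in 5 of these comparisons and 0.00826% with quizalofop-p-ethyl at 10 uM. At an unadjusted p below 0.05, limma gave ABCB4 with mesotrione at 0.1 uM (log2 fold change 0.35), ABCC2 with isoxaflutole at 0.1 uM (0.48) and ABCC3 with quizalofop-p-ethyl at 10 uM (0.66), all higher. That unadjusted cutoff was passed by 4.22%, 5.0% and 4.79% of all features in these comparisons, in the same order. The ABCB4 and ABCC2 values depend on which transcripts are counted. Coding transcripts of ABCB4 had a mean of 3.85 FPKM with mesotrione at 0.1 uM and 4.41 in control, so the direction turns. With unnamed transcripts of the locus added, ABCC2 had a mean of 46.9 FPKM with isoxaflutole at 0.1 uM and 42.8 in control. The 4 ABCC3 libraries at quizalofop-p-ethyl 10 uM had 59.0 to 66.6 FPKM and lay above all controls, whose highest was 53.2, with a limma adjusted p = 1.0. With unnamed transcripts of the locus added they had 71.99 to 99.0 FPKM and overlapped control, at 66.1 to 92.4, and the ABCC3 log2 fold change went from 0.66 to 0.09. Coding transcripts of ABCC3 alone also overlapped, at 5.30 to 31.4 FPKM against 7.64 to 22.3. SLCO1B1 had its highest group mean with isoxaflutole at 0.1 uM, from libraries at 5.16 to 8.92 FPKM, which overlapped control (log2 fold change 0.58, limma adjusted p = 0.96). With every concentration at hand, no gene passed at a lower concentration than 1 mM.

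The concentrations of a compound were also compared directly. Quizalofop-p-ethyl at 1 mM against 10 uM lowered 6 of the 9 genes, while 31.2% of all features passed. They were ABCC6 (log2 fold change -2.80), SLCO2B1 (-1.65), SLCO1B1 (-1.55), ABCC2 (-0.82), ABCB4 (-0.59) and ABCB1 (-0.46), with limma adjusted p from 3.29e-11 to 0.0351. ABCC2, which did not pass against control, had 38.5 to 42.6 FPKM in the 4 libraries at 10 uM, all above its 5 libraries at 1 mM. The ABCB1 call was lost in 7 of 9 fits that left out 1 library, all but those without replicate 1 at 1 mM and replicate 2 at 10 uM, with adjusted p up to 0.173. Mesotrione and isoxaflutole gave 0 of 9 between 1 mM and 10 uM, with 0.97% and 2.84% of all features, and limma gave 1 and 4 of the 9 at an unadjusted p below 0.05. In isoxaflutole these were ABCB1 (0.52) and ABCB4 (0.34), higher at 1 mM, and SLCO1B1 (-0.82) and SLCO1B3 (-0.42), lower. The unadjusted cutoff was passed by 9.8% of all features with mesotrione and 14.2% with isoxaflutole.

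Compared at the same concentration, quizalofop-p-ethyl at 1 mM had lower levels of the same 6 genes than isoxaflutole, with 29.7% of all features passing, and than mesotrione, with 30.2%. The comparisons share the quizalofop-p-ethyl libraries. Against isoxaflutole the log2 differences were -2.39 for ABCC6, -1.44 for SLCO2B1, -1.25 for SLCO1B1, -0.97 for ABCC2, -0.92 for ABCB1 and -0.73 for ABCB4, with limma adjusted p from 5.31e-10 to 0.000885. Against mesotrione they were -2.54, -1.96, -0.97, -0.998, -0.55 and -0.64 in the same order, with limma adjusted p from 1.06e-10 to 0.0102. The 5 quizalofop-p-ethyl libraries lay below all 5 of either other compound for ABCC6, SLCO2B1 and ABCB4. The margin was narrow for ABCB4, with a highest value of 5.283 FPKM against a lowest of 5.303 with mesotrione. It was narrow for SLCO2B1 as well, at 4.841 against 4.894 with isoxaflutole. How many of all features were separated in this way was not counted. Without quizalofop-p-ethyl replicate 5, ABCB1 and SLCO1B1 no longer passed against mesotrione (limma adjusted p = 0.0515 and 0.0568).

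Isoxaflutole and mesotrione at 1 mM differed in 0 of the 9 genes, with 0.256% of all features passing, and limma gave ABCB1 alone at an unadjusted p below 0.05. The unadjusted cutoff was passed by 6.72% of all features. ABCB1 was 0.37 higher on the log2 scale with isoxaflutole (95% interval 0.05 to 0.69, adjusted p = 0.646), and SLCO2B1 was 0.53 lower in the fit (difference -0.53, 95% interval -1.08 to 0.03). The 95% intervals of the other 7 genes all included 0 and reached at most 0.88 from it. At 10 uM and 0.1 uM no gene differed between compounds. Of all features 0.00413% passed for quizalofop-p-ethyl against isoxaflutole at 10 uM, 0.0124% against mesotrione at 10 uM, and 0.0% in the other 4 comparisons. At an unadjusted p below 0.05 limma gave SLCO1B3 for isoxaflutole against mesotrione and ABCC3 for quizalofop-p-ethyl against isoxaflutole, both at 10 uM. The unadjusted cutoff was passed by 4.59% and 4.62% of all features in these comparisons.

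Other transporters of the liver also moved at 1 mM quizalofop-p-ethyl. Among 14 efflux genes, 11 were tested, 2 rose, 4 fell and 5 did not pass, with a median log2 fold change of -0.47. In the same comparison 13% of all features rose and 19.8% fell. The sterol exporters ABCA1 and ABCG1 rose, by 0.76 and 1.15, while ABCG8, the partner of ABCG5 in sterol secretion into bile, fell from 7.57 ± 1.11 FPKM in control and was listed at 0 in all 5 exposed libraries. SLC47A1, the MATE1 exporter of organic cations, fell by 0.86, the copper pump ATP7B by 0.56 and ABCC5 by 0.47. ABCB11, the bile salt export pump, did not pass the filter, with a highest value of 0.341 FPKM in the 49 libraries. ABCC4, MRP4, had 3.57 ± 1.37 FPKM in control and 1.86 ± 1.92 in exposed libraries and did not pass.

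Of 13 uptake genes, 8 were tested, and at 1 mM quizalofop-p-ethyl 4 fell, 2 rose and 2 did not pass, with a median of -0.76. Beside them 19.8% of all features fell and 13% rose. SLC22A7, the OAT2 carrier, fell by 2.51 on the log2 scale and SLC22A9 by 1.82. The nucleoside carrier SLC29A1 fell by 0.96 and SLC22A18 by 0.87. The lactate carrier SLC16A1 rose by 0.79, and SLCO3A1, of the same family as the 3 uptake carriers above, rose by 0.71, from 6.22 ± 0.369 to 10.8 ± 0.438 FPKM. SLC10A1, the bile salt uptake carrier NTCP, did not pass the filter. Isoxaflutole at 1 mM lowered SLC22A7 (-1.07) and SLC22A9 (-0.93) and raised SLCO3A1 (0.33), and mesotrione raised SLC16A1 (0.46), each with limma adjusted p below the threshold. The share of all features passing was 2.42% with isoxaflutole and 0.879% with mesotrione.

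**Figure D4:**
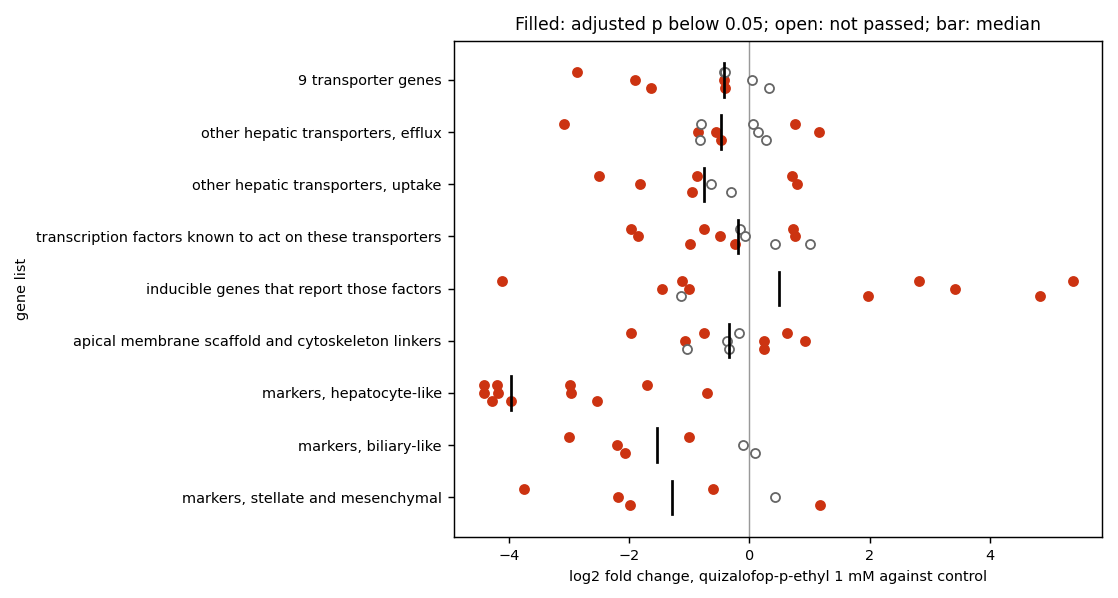
Log2 fold change of each tested gene at quizalofop-p-ethyl 1 mM against control, for the 9 transporters and 8 gene lists; filled points passed at an adjusted p of 0.05, open points did not, and the bar is the list's median. The bar lies at -0.42 for the 9 transporters, -0.76 for the other uptake genes and -3.97 for hepatocyte markers.

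Of 12 factors known to act on these transporters, all tested, 6 fell and 2 rose at 1 mM quizalofop-p-ethyl, where 19.8% of all features fell and 13% rose. HNF4A fell from 26.6 ± 2.11 to 6.89 FPKM, with exposed libraries at 1.49 to 10.3 (log2 fold change -1.97). NR1H4 fell by 1.86, NR1I2 by 0.99, NR0B2 by 0.76, RXRA by 0.50 and FOXO1 by 0.24. NFE2L2 rose by 0.73 and ESRRA by 0.76. AHR had 56.3 ± 4.44 FPKM in control and 53.7 ± 8.91 in exposed libraries. None of the 12 passed with mesotrione or isoxaflutole at 1 mM, where 0.879% and 2.42% of all features passed.

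Among 10 genes that these factors are known to induce, 5 rose and 4 fell at 1 mM quizalofop-p-ethyl, beside 13% and 19.8% of all features. CYP1A1, a target of AHR, rose by 5.39 and CYP1B1 by 3.43 on the log2 scale, ANGPTL4, a PPAR target, by 4.85, and the NRF2 targets SRXN1 and GCLM by 2.82 and 1.98. CYP2C8 fell by 4.13, CYP2B6 by 1.45, CYP3A4 by 1.13 and NQO1 by 1.005. Isoxaflutole at 1 mM raised 5 of the 10, with CYP3A4 at 5.43 and ANGPTL4 at 2.91, beside 0 of the 9 transporters, and lowered CYP2C8 (-0.78). Mesotrione raised CYP3A4 (1.56), SRXN1 (0.68) and CYP1B1 (0.63) and lowered CYP2C8 (-1.29). The share of all features passing was 2.42% with isoxaflutole and 0.879% with mesotrione. CYP3A4 and ABCB1 are both known targets of PXR. ABCB1 with isoxaflutole, given above, did not pass in the main fit, and a link to PXR was not tested.

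Of 11 genes that anchor or deliver canalicular proteins, 4 rose and 3 fell at 1 mM quizalofop-p-ethyl, beside 13% and 19.8% of all features. PDZK1, a scaffold for membrane carriers, fell by 1.97, SLC9A3R1 (EBP50) by 1.07 and RDX (radixin), which links MRP2 to actin, by 0.76. STX3 rose by 0.92, MYO5B by 0.63, VIPAS39 by 0.24 and MSN by 0.24. Isoxaflutole at 1 mM raised MSN (0.33) and STX3 (0.48), and mesotrione changed none of the 11, where 2.42% and 0.879% of all features passed.

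The labelled cell type was checked against its markers. In control the 12 hepatocyte markers summed to 18380 to 21560 FPKM, and at 1 mM quizalofop-p-ethyl to 221 to 5155, with 11 of 11 tested markers lower and a median log2 fold change of -3.97. TAT did not pass the filter. In this comparison 19.8% of all features were lower and 13% higher. The 9 biliary markers summed to 636 to 727 FPKM in control, mostly KRT19, and to 85.6 to 186 in the exposed libraries, with 4 of 6 tested lower and EPCAM and CFTR listed at 0 in all 5. EPCAM was also listed at 0 in all libraries of mesotrione at 10 uM, where the biliary markers summed to 606 to 746 FPKM. The 8 stellate and mesenchymal markers went from 52.4 to 67.96 down to 14.9 to 26.6, with 4 of 6 tested lower and 1, PDGFRB, higher. The 6 leukocyte markers went from 9.94 to 37.6 in control to 3.16 to 16.2, with PTPRC listed at 0 in all exposed libraries. PTPRC was also listed at 0 in all libraries of mesotrione at 1 mM and 10 uM. The 5 endothelial markers summed to at most 2.41 in control and at 1 mM quizalofop-p-ethyl. The part of these shifts in the transporter results was not tested. With mesotrione 0 and with isoxaflutole 1 of the 11 tested hepatocyte markers fell, CYP2E1 (-1.04). Of the 6 tested biliary markers mesotrione lowered 2, KRT19 and SPP1, and isoxaflutole lowered SPP1 and raised SOX9. Both compounds lowered the mesenchymal markers COL3A1 and DCN. The share of all features passing was 0.879% with mesotrione and 2.42% with isoxaflutole.

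Some fragments at these loci were assigned to assembled transcripts without a gene name, which are not in the sums. In control they made up 47.1% of the ABCC3 locus and 24.5% of ABCC2, 7.37% of ABCC6, 7.82% of ABCG2 and 13.4% of SLCO2B1. At 1 mM quizalofop-p-ethyl the shares were 34.95%, 9.42%, 48.7%, 34.6% and 36.9% in the same order. For ABCG2 they had 0 to 0.718 FPKM in control and 0 to 2.27 with isoxaflutole at 1 mM. For ABCC2 they had 1.48 to 19.7 FPKM in control and 0.770 to 5.38 at 1 mM quizalofop-p-ethyl. With these added, ABCC2 passed as lower at 1 mM quizalofop-p-ethyl (limma adjusted p = 2.38e-06). ABCG2 passed as higher at 1 mM with quizalofop-p-ethyl (limma adjusted p = 0.0466) and isoxaflutole (limma adjusted p = 0.0365). In this fit 7 of the 9 genes passed with quizalofop-p-ethyl at 1 mM against control. Over all features 8507 of 19614 passed in that comparison, against 7926 of 24222 in the main fit. With isoxaflutole at 1 mM it was 880 of 19614, against 585 of 24222. The SLCO1B1, SLCO1B3, ABCB1 and ABCB4 loci hold more than 1 named gene, so their unnamed transcripts could not be assigned.

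**Figure D5:**
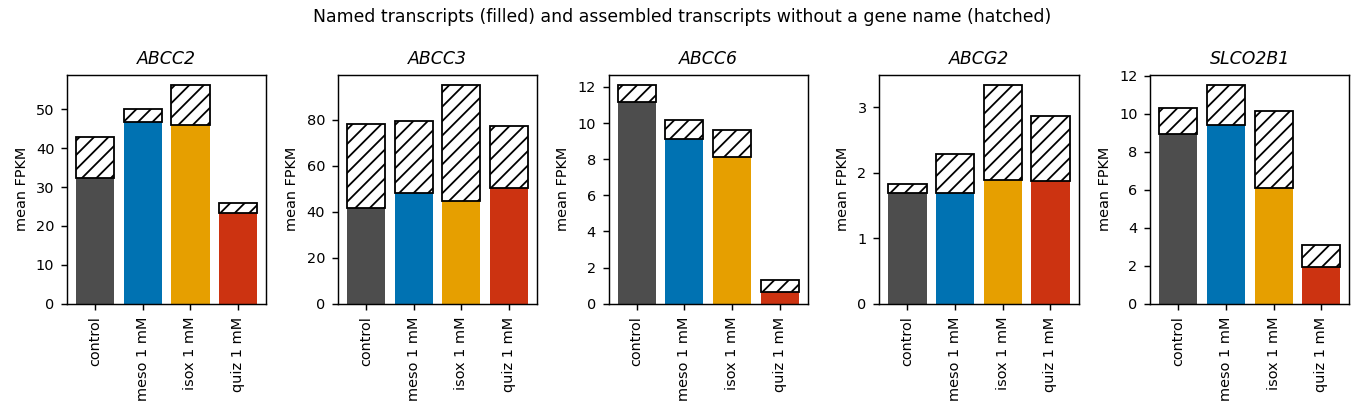
Mean FPKM of named transcripts (filled) and, stacked on them, of assembled transcripts without a gene name (hatched) for 5 genes in control and the 3 compounds at 1 mM (5 libraries each); axes start at 0 and differ between genes. For ABCC3 in control the 2 parts are 41.4 and 36.8 FPKM.

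Genes whose pattern over the 10 group means was most like that of each transporter are named as a description, since the points share libraries. For ABCC6 and SLCO2B1 most of the range comes from 1 group, quizalofop-p-ethyl at 1 mM. For ABCC6 they were RBM4B and ENHO (Pearson r = 0.992 for both), for SLCO2B1 MCEE and HPSE (0.988) and for SLCO1B1 FAM198B (0.975) and CLPX (0.972). ABCC2 lay closest to LEPROTL1 (0.986) and FAM200A (0.985), ABCB1 to SDC4 (0.978) and LBH (0.975), and ABCB4 to WBP1L (0.967) and SMPDL3A (0.962). The likeness was lower for SLCO1B3 with LY96 (0.959) and DBF4 (0.952), ABCG2 with RRAS2 (0.951) and SLC25A5 (0.942), and ABCC3 with PITPNM2 (0.913) and MRE11 (0.881).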

How the data were processed

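The study sequenced 50 HepaRG libraries (10 groups of 5), of which 49 were used here. A stranded total RNA kit with ribosomal RNA depletion was used, per the labels' protocols. Per the submitters' processing notes HISAT, HISAT2, StringTie and GRCh38 were used, with no versions given. The authors deposited 1 table of FPKM values for 239290 transcripts, 40117 of them assembled and without a gene name. In 20 of the 50 columns the deposited values hold 24 tiny numbers below 0 (the other columns hold FPKM of 0 or above), which were set to 0. FPKM were summed per gene name; unnamed transcripts were summed by locus. Depth is not in the table and was estimated from the FPKM step of 1 fragment in 16115 single-exon transcripts.

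Values were compared as log2(FPKM + 1), which understates the change of genes near 0, with limma 3.58.1 in R 4.3.3 (1 mean per group, moderated variance with trend and robust settings, two-sided). Features with at least 1 FPKM in at least 5 libraries were tested, 24222 in all. Adjustment was by Benjamini-Hochberg over all of them within each of 21 comparisons, at 0.05. These were 9 against control, 9 between compounds and 3 between concentrations. The fit was tested on simulated data.

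The alternatives were median-ratio scaling, a pseudocount of 0.1, all 50 libraries, no filter, the 2 groups alone, a block, unnamed transcripts added where a locus has 1 named gene, and each library left out. All 9 genes are named. Of the gene lists, members that passed at 1 mM and up to 4 others could be named, and per gene the 2 with the most similar pattern. A few planned items, among them 2 genes of the lists and 1 motif, are not reported here and are in no count or median of a list. The members and lists were chosen with earlier results of these data known. Transcript types are from GENCODE 29, where all 80 transcripts matched, 76 with the same position. Sequences are from RefSeq. Tables were made with Python 3.11.15, pandas 2.3.3, numpy 2.4.6 and scipy 1.17.1, figures with matplotlib 3.10.9.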

Additional observations from a re-analysis of the deposited data

Results flagged for a closer look

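In 7 of 90 sets of libraries (9 genes in 10 groups) 1 library lay far from the others of its group by Dixon's ratio; chance alone gives about 1 in 20. Replicate 1 of quizalofop-p-ethyl at 1 mM was the high one for ABCB1, with 29.36 FPKM against 10.26 to 15.44 in the other 4 libraries, for ABCC2, with 36.81 against 18.12 to 21.95, and for SLCO1B1, with 3.443 against 0 to 0.8925. ABCG2 had 4 such libraries. Replicate 2 of mesotrione at 1 mM had 3.618 FPKM against 0.8607 to 1.617, replicate 4 of isoxaflutole at 1 mM had 3.728 against 1.254 to 1.607, and replicate 4 of quizalofop-p-ethyl at 1 mM had 4.049 against 0.8819 to 1.764. At 0.1 uM quizalofop-p-ethyl the low library was replicate 1, with 0.5823 FPKM of ABCG2 against 1.995 to 2.143.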

How the results depend on the processing

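ABCC6, SLCO1B1 and SLCO2B1 passed as lower at 1 mM quizalofop-p-ethyl against control in all 7 other settings and with any library left out. The number of the 9 genes passing there was 5 in the main fit and 3 with all 50 libraries, no filter, median-ratio scaling or the 2 groups alone. It was 3 to 6 with 1 library left out. Over all features 7926 of 24222 passed there in the main fit and 4645 of 24268 with all 50 libraries. It was 9953 of 68337 with no filter and 8241 of 23568 with median-ratio scaling. With all 50 libraries 3 of the 9 genes passed against isoxaflutole, 2 against mesotrione and 3 against 10 uM, where 6 passed in the main fit for each. Over all features the number passing went from 7195 to 3905, from 7306 to 3954 and from 7550 to 5917 in the same order. For isoxaflutole at 1 mM against control 0 of the 9 genes passed, but 1 with assembled transcripts added and 0 to 1 with 1 library left out. Over all features 585 of 24222 passed in the main fit and 880 of 19614 with assembled transcripts added. For isoxaflutole at 1 mM against 10 uM 0 of the 9 passed, but 1 with median-ratio scaling, 3 with assembled transcripts added and 0 to 1 with 1 library left out. Over all features 688 of 24222 passed in the main fit, 764 of 23568 with median-ratio scaling and 1078 of 19614 with assembled transcripts added. The cause was not tested.

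With all 50 libraries, 1 mM against 10 uM quizalofop-p-ethyl changed sign for ABCB1 (0.26) and ABCC2 (0.25); the fit then holds the left-out library. With assembled transcripts added, ABCG2 at mesotrione 1 mM went from -0.03 to 0.21 and ABCC3 at quizalofop-p-ethyl 1 mM from 0.32 to -0.036. Leaving out 1 library changed the sign of values that did not pass. At 1 mM against control these were ABCC3 with mesotrione (-0.001 to 0.40) and isoxaflutole (-0.070 to 0.28), SLCO2B1 with mesotrione (-0.076 to 0.19), and ABCG2 with mesotrione (-0.25 to 0.10), isoxaflutole (-0.11 to 0.22) and quizalofop-p-ethyl (-0.18 to 0.18).

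With a pseudocount of 0.1 the SLCO1B1 value at 1 mM quizalofop-p-ethyl was -2.93 and that of SLCO1B3 -1.04. SLCO1B3 gave no value with median-ratio scaling or the 2 groups alone, where it did not pass the filter.

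The runs of title numbers served as a replicate block: with this block 5 genes passed at 1 mM quizalofop-p-ethyl against control, as without it, and no count of the 9 genes moved in the other 20 comparisons. The mean correlation of deviations between libraries of different groups was 0.017 within a run and -0.004 between runs. Over all features the block raised the number passing at 1 mM against control. It went from 213 to 343 with mesotrione, from 585 to 810 with isoxaflutole and from 7926 to 8163 with quizalofop-p-ethyl. Whether the runs are batches was not tested. Replicate numbers of control do not follow the runs: control replicate 5 shares run 1 with replicate 1 of the other groups. In the 49 libraries 1 fragment per kb was worth 0.0292 to 0.139 FPKM.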

Other observations

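The left-out library of quizalofop-p-ethyl at 10 uM, which entered only the fits with all 50 libraries, had 0.942 FPKM of ABCB1, 0.0658 of ABCB4, 9.96 of ABCC3, 0.368 of ABCC6, 0.653 of ABCG2, 0.0874 of SLCO1B1 and 2.33 of SLCO2B1. ABCC2 and SLCO1B3 were listed at 0 in it.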
